A study of Mus musculus with 12 samples.

Results

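The transcripts of 10 genes of the machinery that turns prohormones into hormones inside secretory granules were followed in cultured mouse islets: Pcsk1, Pcsk2, Pcsk1n, Cpe, Pam, Chga, Chgb, Scg2, Scg3 and Scg5. They were chosen by gene symbol for this role, and 10 of the 14089 genes in the count table are members. All 10 were tested. RNA came from isolated pancreatic islets of C57BL/6J mice, in 12 libraries with 3 in each of 4 groups, and all islets were kept under treatment for 24 hours. The first group received a mixture of interleukin-1β (5 ng/ml), tumour necrosis factor α (10 ng/ml) and interferon γ (100 ng/ml) together with ML351 at 10 µM, and is called the combination here. The second received the cytokine mixture alone, the third ML351 alone, and the last vehicle. ML351 is an inhibitor of 12/15-lipoxygenase. The comparisons ask how an inflammatory environment changes these transcripts, and whether the inhibitor alters that change. An islet library mixes RNA of all islet cells, so fewer cells of a type and less RNA per cell cannot be told apart. The labels do not say whether the 3 libraries of a group stem from different mice or cultures; p-values therefore weigh a difference only against the library-to-library spread seen here, part of which may be technical.

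Islet hormones are made as longer precursors that are cut, trimmed and sometimes amidated while they travel through the Golgi apparatus into acidic, dense-core granules. The prohormone convertases PC1/3 (encoded by Pcsk1) and PC2 (Pcsk2) cut precursors such as proinsulin and proglucagon after pairs of basic amino acids, carboxypeptidase E (Cpe) removes the basic residues left behind, and peptidylglycine α-amidating monooxygenase (Pam) converts a terminal glycine into an amide, as in amylin. Each convertase has a small binding protein: proSAAS (Pcsk1n) can inhibit PC1/3, and the neuroendocrine chaperone encoded by Scg5 helps PC2 to mature. Granins (Chga, Chgb, Scg2, Scg3) are acidic granule proteins that aggregate with the cargo and are themselves precursors of peptides. PC1/3 is best known from β cells and PC2 is needed in α cells to make glucagon.

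The sequences before the RefSeq start of 3 of these genes are shown because they carry all letters of the cyclic AMP response element (CRE). This is a site bound by CREB family factors, although the genes moved in both directions below. Each is the stretch of 100 bases just before the RefSeq start on GRCm38.p6, written 5′ to 3′. The gene positions given further below come from another annotation, GENCODE. By those, the sites of Scg2 and Chgb lie inside the gene and that of Pcsk1 before it. Capitals mark TGACGTCA, the full palindromic site.
Pcsk1, chr13:75089757-75089856 (+ strand): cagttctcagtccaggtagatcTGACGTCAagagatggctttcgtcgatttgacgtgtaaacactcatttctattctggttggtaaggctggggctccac
Scg2, chr1:79440027-79440126 (- strand): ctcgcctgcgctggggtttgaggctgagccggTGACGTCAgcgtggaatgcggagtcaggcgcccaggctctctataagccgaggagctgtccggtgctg
Chgb, chr2:132781542-132781641 (+ strand): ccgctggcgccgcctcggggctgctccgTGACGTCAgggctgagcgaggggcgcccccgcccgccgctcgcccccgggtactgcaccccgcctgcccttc
RefSeq promoters were found for 9 of the 10 genes, all but Cpe. In the 250 bases before the start, on both strands, the full site TGACGTCA was present in 3 of the 9 genes and in 1.55% of all 32851 promoters. The shorter form TGACG, which the full site contains, was present in 7 of 9 genes and in 17.8% of promoters. The E-box CANNTG was present in 7 of 9 (66.2% of promoters), a STAT-type site TTCNNNGAA in Scg2 and Scg5 (7.02%), a loose NF-κB pattern of G and C runs in 5 of 9 (45.8%), the X-box core GTTGCC in 1 (10.4%), and the TATA box TATAAA in 0 (12.4%). The full sites began 78 bases before the start of Pcsk1, 72 before that of Chgb and 68 before that of Scg2. These matches describe letters only, and the motifs were chosen with earlier results of these data known.

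Libraries held 20208286 to 27193026 counts. The lowest count of any of the 10 genes in any library was 2664 (Pam), at which counting error alone is 1.94%. Together the 10 genes took 2.15% to 2.23% of the counts with the combination, 2.24% to 2.34% with cytokines, 2.46% to 2.63% with ML351 and 2.58% to 2.63% with vehicle. Summed β-cell markers, a sum carried by Ins1, Ins2 and Iapp, stood at 257215 to 321673 CPM (counts relative to the library total, scaled by TMM) with the combination, 290098 to 342945 with cytokines, 286290 to 337402 with ML351 and 332395 to 378949 with vehicle. By gene, however, 6 of the 8 β-cell markers were called lower with cytokines against vehicle, with a median log2 fold change of -2.20 over the 8. Summed α-cell markers stood at 747 to 1671 CPM with the combination, 793 to 1433 with cytokines, 27598 to 40270 with ML351 and 35077 to 39262 with vehicle. δ-cell markers stood at 147 to 212 CPM with the combination, 99.6 to 145 with cytokines, 1531 to 1581 with ML351 and 1438 to 1503 with vehicle. All of these 8, 6 and 4 markers were measured, and every α- and δ-cell marker was called lower with cytokines against vehicle. Lower sums with cytokines than with vehicle were also found for markers of PP cells (808 to 1419 against 10403 to 11787 CPM), endothelial cells (14.2 to 19.4 against 69.5 to 78 CPM) and stellate cells and fibroblasts (42.9 to 69.4 against 107 to 339 CPM). Schwann and neural sums were lower too (114 to 116 against 127 to 150 CPM). Higher sums were found for ductal markers (1739 to 2285 with cytokines against 771 to 935 CPM with vehicle) and macrophage markers (295 to 319 against 203 to 210 CPM). By gene, 1 PP-cell marker was called higher (Sftpd, log2 fold change 2.26) and 2 lower. Stellate and fibroblast markers gave 1 higher and 6 lower, and endothelial markers 6 lower. Ductal markers gave 3 higher and 2 not called, and macrophage markers 4 higher, 1 lower and 3 not called. Schwann and neural markers gave 1 higher, 2 lower and 3 not called. The part of these shifts in the results below was not tested.

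Cytokines changed the level of all 10 genes, and in opposite directions. Pcsk1, Pcsk2, Pcsk1n, Pam, Chga and Scg2 fell, and Cpe, Chgb, Scg3 and Scg5 rose (edgeR quasi-likelihood test, adjusted p over all genes from 1.62e-12 to 0.00993, n = 3 libraries a group). Changes ran from 24.3% of the vehicle level for Pcsk1 to 1.77-fold for Cpe. Among all 14089 genes 72.5% were called, 35.3% higher and 37.2% lower, so being called is common in this comparison. The median size of change was 0.72 (log2, either direction) over the 10 genes and 0.68 over all genes. In the presence of ML351 the same 6 genes fell and the same 4 rose (combination against ML351, where 71.5% of genes were called). In no gene did the libraries with and without cytokines overlap in either background; libraries did not overlap in 76.6% of all genes for cytokines against vehicle and in 74% for the combination against ML351.

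**Figure D1:**
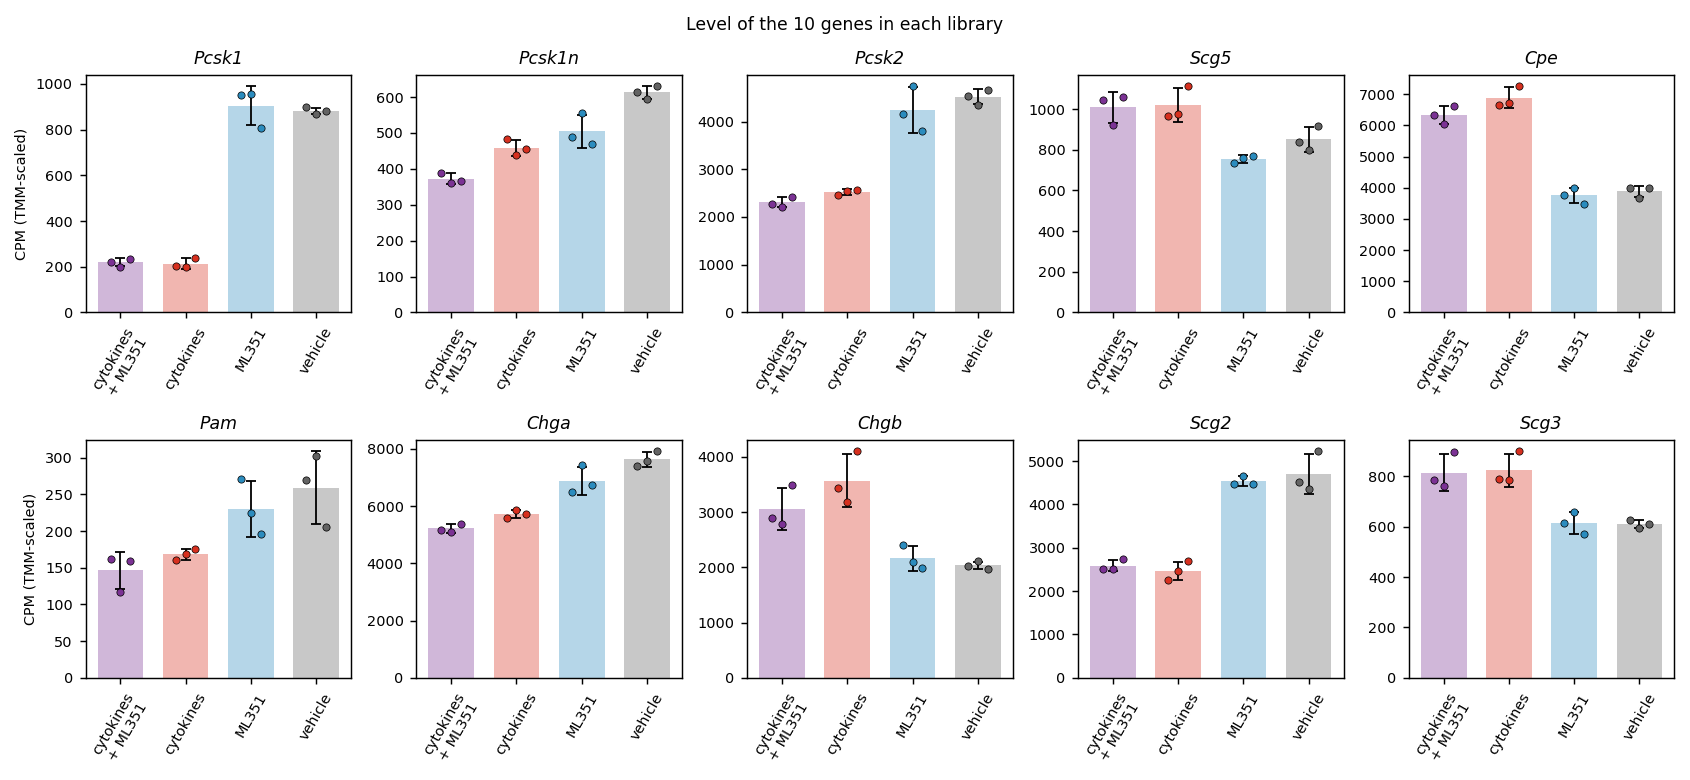
Level of each of the 10 genes in CPM on a linear axis from 0, by group (combination, cytokines, ML351, vehicle). Points are single libraries, bars are means and error bars are SD (n = 3). The cytokine and combination libraries lie apart from the ML351 and vehicle libraries in each panel but that of Pcsk1n. They lie below them for Pcsk1, Pcsk2, Pam, Chga and Scg2 and above them for Cpe, Chgb, Scg3 and Scg5. For Pcsk1n, libraries with cytokines lie below those without at either ML351 level, but the cytokine and ML351 groups overlap.

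Both convertase transcripts fell, and Pcsk1 fell relative to Pcsk2 by the ratio given further on. Pcsk1 (chromosome 13, 75089826 to 75134861, GRCm38) stood at 222, 199.9 and 235 CPM with the combination, 201, 201 and 239.8 CPM with cytokines, 953, 957 and 806 CPM with ML351 and 897, 869 and 881 CPM with vehicle. The 6 libraries with cytokines were all far below the 6 without, and they differed little among themselves. With cytokines the level was 24.3% of that with vehicle (log2 difference -2.04 ± 0.0837 SE, adjusted p = 1.62e-12 by edgeR), and in the presence of ML351 it was 24.2% of that with ML351 alone (log2 difference -2.05 ± 0.0837 SE, adjusted p = 1.68e-12 by edgeR). Pcsk2 (chromosome 2, 143546156 to 143816285) stood at 2276, 2216 and 2421 CPM with the combination, 2453, 2539 and 2567 CPM with cytokines, 4163, 4747 and 3804 CPM with ML351 and 4537, 4355 and 4669.7 CPM with vehicle. Its cytokine level was 55.7% of vehicle (log2 difference -0.84 ± 0.0705 SE, adjusted p = 8.5e-09 by edgeR), and the combination level was 54.4% of ML351 (log2 difference -0.88 ± 0.0705 SE, adjusted p = 5.43e-09 by edgeR). The antisense genes Pcsk2os1 and Pcsk2os2 overlap Pcsk2, and the libraries are not stranded. The count of Pcsk2os1 was 0.286% to 0.518% of that of Pcsk2, and that of Pcsk2os2 was not examined. Other annotated genes overlap the spans of Pam and Scg3, and their counts were not examined either.

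The binding proteins of both convertases went different ways. Pcsk1n (chromosome X, 7919822 to 7924410), which encodes proSAAS, stood at 389, 362 and 367 CPM with the combination, 483, 439 and 456 CPM with cytokines, 489, 557 and 468 CPM with ML351 and 613, 595 and 631 CPM with vehicle. The combination was lowest and vehicle highest, with cytokines and ML351 between, and only cytokines and ML351 overlapped. Cytokines lowered it to 74.9% of vehicle (log2 difference -0.42 ± 0.0642 SE, adjusted p = 1.65e-05 by edgeR), and in the presence of ML351 to 73.9% of ML351 (log2 difference -0.44 ± 0.0643 SE, adjusted p = 1.03e-05 by edgeR). Its span overlaps the gene Eras on the other strand, whose reads could not be told apart. Scg5 (chromosome 2, 113776362 to 113829121), which encodes the PC2 chaperone, stood at 1045, 921 and 1061 CPM with the combination, 966, 977 and 1115 CPM with cytokines, 734, 762 and 769.8 CPM with ML351 and 839, 798 and 919 CPM with vehicle. It rose modestly with cytokines (1.2-fold; log2 difference 0.26 ± 0.0708 SE, adjusted p = 0.00351 by edgeR) and in the presence of ML351 (1.34-fold; log2 difference 0.42 ± 0.0709 SE, adjusted p = 4.86e-05 by edgeR). The rise against vehicle was not called when libraries were scaled by their totals without Ins1 and Ins2 (0.09, edgeR adjusted p = 0.199), a scaling that moved the median of all genes to -0.19.

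Exopeptidase and amidating enzyme also parted. Cpe (chromosome 8, 64592542 to 64693054), whose product trims basic residues after the convertases have cut, stood at 6347, 6042 and 6631 CPM with the combination, 6668, 6731 and 7269 CPM with cytokines, 3771, 3996 and 3493 CPM with ML351 and 3989, 3686 and 3992 CPM with vehicle. Every library with cytokines was above every library without them. It rose 1.77-fold with cytokines (log2 difference 0.82 ± 0.0646 SE, adjusted p = 3.62e-09 by edgeR) and 1.69-fold in the presence of ML351 (log2 difference 0.76 ± 0.0646 SE, adjusted p = 1.22e-08 by edgeR). Pam (chromosome 1, 97795114 to 98095646), the lowest of the 10 per kilobase in each group, stood at 163, 118 and 159.7 CPM with the combination, 160.0, 169 and 176 CPM with cytokines, 271, 225 and 195 CPM with ML351 and 270.4, 303 and 205 CPM with vehicle. Its coefficient of variation was 4.73% with cytokines and 19.1% with vehicle. It fell to 64.9% of vehicle with cytokines (log2 difference -0.62 ± 0.177 SE, adjusted p = 0.00993 by edgeR) and to 63.5% of ML351 with the combination (log2 difference -0.65 ± 0.177 SE, adjusted p = 0.00802 by edgeR).

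Granins split as well, with both chromogranins moving apart. Chga (chromosome 12, 102554969 to 102565028), which encodes chromogranin A, stood at 5181, 5103 and 5391 CPM with the combination, 5600.2, 5863 and 5732 CPM with cytokines, 6500.2, 7432 and 6721 CPM with ML351 and 7405, 7568 and 7919 CPM with vehicle. It fell to 75.1% of vehicle with cytokines (log2 difference -0.41 ± 0.0599 SE, adjusted p = 8.32e-06 by edgeR) and to 75.9% of ML351 with the combination (log2 difference -0.40 ± 0.0599 SE, adjusted p = 1.33e-05 by edgeR). Chgb (chromosome 2, 132781278 to 132795079), chromogranin B, stood at 2893, 2779 and 3481 CPM with the combination, 3428, 3178 and 4102 CPM with cytokines, 2411, 2093 and 1981 CPM with ML351 and 2029, 2109 and 1977 CPM with vehicle. Replicate 4 was the highest library of both cytokine-treated groups, and the lowest of these 6 libraries was still above the highest without cytokines. The rise was 1.75-fold against vehicle (log2 difference 0.81 ± 0.105 SE, adjusted p = 9.13e-06 by edgeR) and 1.41-fold against ML351 (log2 difference 0.50 ± 0.104 SE, adjusted p = 0.000737 by edgeR).

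Scg2 (chromosome 1, 79434669 to 79440120), which encodes secretogranin II, the precursor of secretoneurin, stood at 2521, 2517 and 2732 CPM with the combination, 2263, 2453 and 2687 CPM with cytokines, 4476, 4665 and 4466 CPM with ML351 and 4529, 4358 and 5229.8 CPM with vehicle. It fell to 52.4% of vehicle (log2 difference -0.93 ± 0.0744 SE, adjusted p = 4.72e-09 by edgeR) and to 57.1% of ML351 (log2 difference -0.81 ± 0.0743 SE, adjusted p = 3.17e-08 by edgeR). Scg3 (chromosome 9, 75643189 to 75684056), secretogranin III, binds chromogranin A and cholesterol-rich granule membrane. It stood at 787, 761 and 898 CPM with the combination, 788, 784 and 900.4 CPM with cytokines, 614, 657 and 571 CPM with ML351 and 627, 593 and 612 CPM with vehicle. It rose 1.35-fold against vehicle (log2 difference 0.43 ± 0.0725 SE, adjusted p = 4.21e-05 by edgeR) and 1.33-fold against ML351 (log2 difference 0.41 ± 0.0725 SE, adjusted p = 7.82e-05 by edgeR), with no overlap in either comparison.

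**Figure D2:**
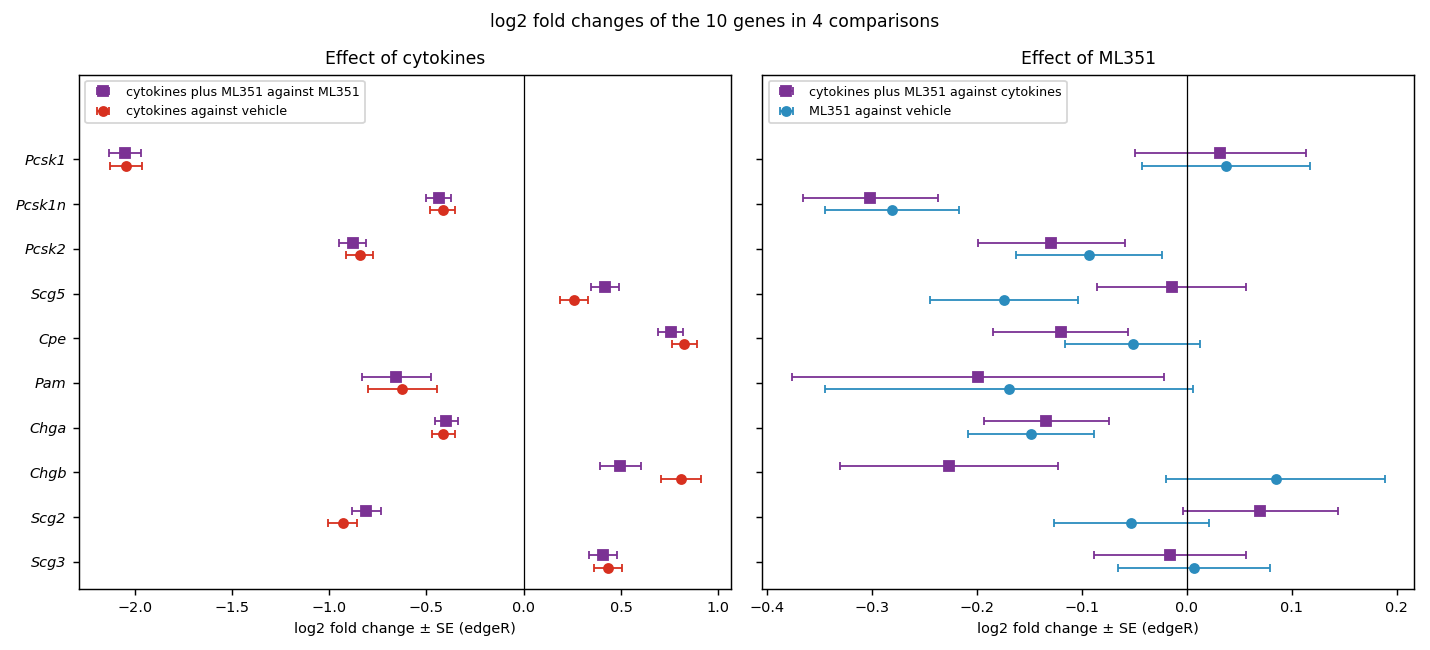
log2 fold changes with their SE from edgeR for the 10 genes (rows), for cytokines with and without ML351 (left panel) and for ML351 with and without cytokines (right panel, with a narrower axis). With cytokines, values ran from -2.05 (Pcsk1) to 0.82 (Cpe) and lay close together in both backgrounds, while with ML351 the largest in size was -0.30 (Pcsk1n).

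The order of the transcripts by level per kilobase of exon (CPM divided by the length of all annotated exons) changed with these shifts. With cytokines Cpe led at 2641 ± 126 CPM per kb, followed by Chga at 2079.8 ± 47.7, Chgb at 1303 ± 175, Scg2 at 981 ± 84.5 and Scg5 at 649.6 ± 52.8 (SD, n = 3). Pcsk2 (319 ± 7.51) and Scg3 (301 ± 24.2) came next and did not differ beyond their spread, followed by Pcsk1n (209.5 ± 10.1), Pcsk1 (38.2 ± 3.97) and Pam (14.2 ± 0.669). With vehicle the order was Chga (2769 ± 95.4), Scg2 (1871 ± 184), Cpe (1491 ± 67.4), Chgb (744 ± 24.2), then Pcsk2 (571 ± 20) and Scg5 (543 ± 39.4), which did not differ beyond their spread. Pcsk1n (279.6 ± 8.2), Scg3 (223 ± 6.15), Pcsk1 (157 ± 2.46) and Pam (21.8 ± 4.18) closed it. Cpe, behind Chga and Scg2 with vehicle, thus stood first with cytokines, and Scg2 came after Chgb. With the combination the first places were the same as with cytokines, and the difference between Chgb (1113 ± 138) and Scg2 (1029.8 ± 48.8) was smaller than the SD of Chgb. With ML351 alone the order was that of vehicle, but Pcsk1n (230 ± 21.1) and Scg3 (224 ± 15.7) did not differ beyond their spread. The same held for Pcsk2 (536 ± 60.2) and Scg5 (481 ± 12.2).

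Expressed as a share of the counts of all 10 genes, which does not depend on the scaling between libraries, Cpe took 28.9% ± 0.095 with cytokines and 15% ± 0.48 with vehicle. Chgb took 14.9% ± 1.3 with cytokines and 7.85% ± 0.52 with vehicle. Chga remained a large part, at 24.1% ± 1.2 with cytokines and 29.4% ± 0.61 with vehicle. The shares of Pcsk2 (10.6% ± 0.36) and Scg2 (10.3% ± 0.43) with cytokines compare with 17.4% ± 0.21 and 18.1% ± 1.1 with vehicle, and that of Pcsk1 was 0.895% ± 0.047 with cytokines and 3.4% ± 0.12 with vehicle (SD, n = 3 each).

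Ratios of counts within a library set each convertase against its counterpart or binding protein, again free of scaling. Pcsk1 over Pcsk2 was 0.0974, 0.0902 and 0.097 with the combination, 0.082, 0.0792 and 0.0934 with cytokines, 0.229, 0.202 and 0.212 with ML351 and 0.198, 0.2 and 0.189 with vehicle. Over both backgrounds it was 43.8% as high with cytokines (log2 difference -1.19). Scg5 over Pcsk2 was 0.459, 0.416 and 0.438 with the combination, 0.394, 0.385 and 0.434 with cytokines, 0.176, 0.161 and 0.202 with ML351 and 0.185, 0.183 and 0.197 with vehicle, a rise of 2.29-fold with cytokines. There was thus more chaperone transcript for each PC2 transcript in all 6 libraries with cytokines. Pcsk1n over Pcsk1 was 1.75, 1.81 and 1.56 with the combination, 2.4, 2.18 and 1.9 with cytokines, 0.513, 0.582 and 0.581 with ML351 and 0.683, 0.685 and 0.717 with vehicle, 3.08-fold higher with cytokines. Chga over Chgb was 1.79, 1.84 and 1.55 with the combination, 1.63, 1.84 and 1.4 with cytokines, 2.7, 3.55 and 3.39 with ML351 and 3.65, 3.59 and 4 with vehicle, 48.2% as high with cytokines. Each of these 4 cytokine differences had p = 0.005 by a two-sided exact permutation test within each ML351 level. That is the smallest p that 400 arrangements allow, and the adjusted p was 0.008 over the 8 ratio tests made. The ratios are not independent of the tests on single genes. For Scg5 over Pcsk2 and Chga over Chgb this p follows from those, because 1 gene rose and the other fell without overlap in both backgrounds.

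**Figure D3:**
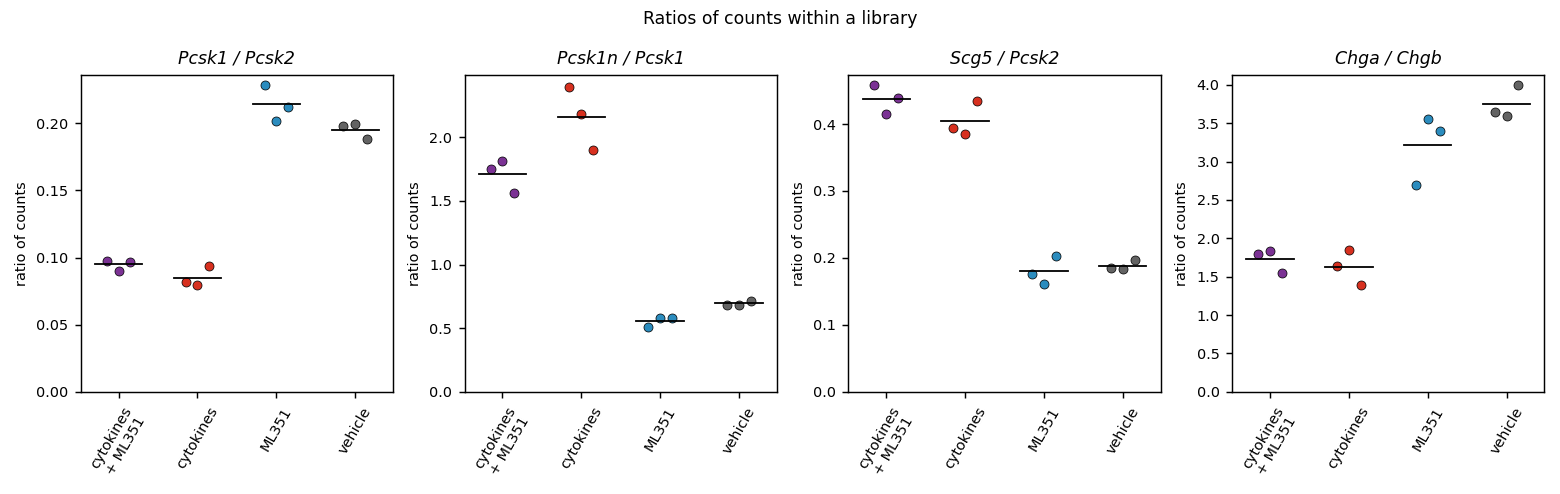
Ratio of the counts of a pair of genes within a library, on linear axes from 0, by group. Points are single libraries and lines are means (n = 3). Libraries with cytokines lie apart from those without in all panels, and Pcsk1n over Pcsk1 is lower with ML351 than without it at either cytokine level.

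In the ML351 comparisons Pcsk1n was the only one of the 10 genes to be called, and it was lower with ML351. Against vehicle 0 of 10 were called (0.0355% of all genes were), with 3 at an unadjusted p under 0.05 by edgeR (8.98% of all genes). These were Pcsk1n (lower, at 82.3% of vehicle; log2 difference -0.28 ± 0.064 SE, adjusted p = 0.165 by edgeR), Chga (log2 difference -0.15 ± 0.0598 SE, adjusted p = 0.452 by edgeR) and Scg5 (log2 difference -0.17 ± 0.0708 SE, adjusted p = 0.462 by edgeR). All 3 ML351 libraries lay below all 3 vehicle libraries for Pcsk1n and Scg5, as did 7.32% of all genes. DESeq2 called Pcsk1n alone (-0.29, DESeq2 adjusted p = 0.00271), and without ML351 replicate 2 edgeR called it too (-0.36, edgeR adjusted p = 0.0359). Over all alternatives its adjusted p against vehicle ran up to 0.574. Summed PP-cell markers stood at 4156 to 9681 CPM with ML351 and 10403 to 11787 CPM with vehicle. Macrophage markers stood at 153 to 173 CPM with ML351 and 203 to 210 CPM with vehicle. Higher with ML351 were the sums of endothelial markers (83.1 to 85 against 69.5 to 78 CPM) and δ-cell markers (1531 to 1581 against 1438 to 1503 CPM). By gene, none of these markers was called. Their part in these differences was not tested.

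With cytokines present in both groups, Pcsk1n fell with ML351 and was the only one of the 10 called (1.43% of all genes were called, 0.788% lower). It averaged 373 ± 14.4 CPM with the combination and 459 ± 22.2 CPM with cytokines (SD, n = 3; log2 difference -0.30 ± 0.0643 SE, adjusted p = 0.0329 by edgeR). The call was lost in 8 of 21 alternatives, with values of -0.25 to -0.33 and edgeR adjusted p of 0.0547 to 0.122. Among these were the removal of vehicle replicate 1 (0.0547), cytokines replicate 1 (0.0817), 3 (0.0555) or 4 (0.09), or combination replicate 2 (0.092). By unadjusted p under 0.05 edgeR counted 3 of the 10 genes, against 15.7% of all genes. Values that were not called included those of Chgb (log2 difference -0.23 ± 0.104 SE, adjusted p = 0.316 by edgeR), Chga (log2 difference -0.13 ± 0.0598 SE, adjusted p = 0.288 by edgeR), Pcsk2 (log2 difference -0.13 ± 0.07 SE, adjusted p = 0.393 by edgeR) and Cpe (log2 difference -0.12 ± 0.0642 SE, adjusted p = 0.385 by edgeR). Pcsk1n, Pcsk2, Cpe and Chga were lower in all 3 combination libraries than in all 3 cytokine libraries, as were 10.3% of all genes. Summed acinar markers, 16 of 19 measured, stood at 1081 to 1577 CPM with the combination and 42 to 895 CPM with cytokines. Endothelial markers stood at 8.52 to 12.1 CPM with the combination and 14.2 to 19.4 CPM with cytokines, macrophage markers at 272 to 283 CPM with the combination and 295 to 319 CPM with cytokines, and δ-cell markers at 147 to 212 CPM with the combination and 99.6 to 145 CPM with cytokines. Schwann and neural markers stood at 99.4 to 108 CPM with the combination and 114 to 116 CPM with cytokines. By gene, 0 of the 16 acinar markers were called. Endothelial markers gave 3 lower and 3 not called, macrophage markers 1 lower and 7 not called, and ductal markers 1 lower and 4 not called. Among δ-cell markers 1 was higher and 3 were not called. No marker of the other cell types was called. The part of these markers in the differences was not tested. Against vehicle the combination held Pcsk1n at 60.8% (log2 difference -0.72 ± 0.0645 SE, adjusted p = 2.29e-08 by edgeR), where 72.5% of genes and all 10 members were called.

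The ratio of Pcsk1n to Pcsk1, which pairs proSAAS with the convertase it can inhibit, was lower with ML351 in both backgrounds with no overlap, at 79.8% over both (log2 difference -0.33, two-sided exact permutation test within cytokine level p = 0.005, the smallest possible, adjusted p = 0.008). It is not independent of the test on Pcsk1n itself. Pcsk1 over Pcsk2 was 1.11-fold higher with ML351 (log2 difference 0.15, exact permutation p = 0.02, adjusted p = 0.0267), but without combination replicate 1 or 4 the adjusted p was 0.0667. Scg5 over Pcsk2 (0.02, exact permutation p = 0.755, adjusted p = 0.755) and Chga over Chgb (-0.07, exact permutation p = 0.54, adjusted p = 0.617) gave no call with ML351.

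The interaction, which asks whether ML351 alters the cytokine effect, was called for 0 of 10 genes, and for 0.0071% of all genes. No member had an unadjusted p under 0.05 in the edgeR test (8.23% of all genes did), and DESeq2 called 0 as well. The largest value was that of Chgb (log2 difference -0.31 ± 0.147 SE, adjusted p = 0.608 by edgeR), for which the cytokine effect was 0.50 with ML351 and 0.81 without it. The other values ran from -0.07 to 0.16, and the SE of the 10 values from 0.085 to 0.25, so changes of the cytokine effect of this size were not called with 3 libraries a group.

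Genes around this machinery were counted from lists chosen for their role. Of 20 related convertases, carboxypeptidases and peptidases 17 were measured. With cytokines 4 rose, 6 fell and 7 were not called (median log2 fold change 0.03, against -0.02 over all genes). Among those that fell were Prepl (-1.72), a peptidase related to prolyl oligopeptidase, Mbtps1 (-1.35), the site-1 protease of the Golgi, and Ece1 (-1.24), which activates endothelins. The rises were those of Pcsk4 (1.40), a convertase known from germ cells, Ctsl (0.96), Rnpep (0.92) and Ide (0.32). Ctsl is the gene of a lysosomal protease, Rnpep that of aminopeptidase B and Ide that of the insulin-degrading enzyme. Pcsk4 averaged 5.19 ± 0.911 CPM with cytokines and 1.96 ± 0.307 CPM with vehicle (SD, n = 3). Furin, the ubiquitous convertase, fell (-0.69), while Cpd, a carboxypeptidase related to Cpe, was at 0.06 (adjusted p = 0.444); Ide, Furin and Cpd were chosen after their values were seen.

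With the combination against cytokines, Ctsl (log2 difference -0.26 ± 0.0575 SE, adjusted p = 0.0404 by edgeR) and Rnpep (log2 difference -0.28 ± 0.0649 SE, adjusted p = 0.0437 by edgeR) fell, the only genes of the 4 pathway lists called for ML351 in either background. Neither call was stable: Ctsl lost it in 13 of 21 alternatives (adjusted p up to 0.124), among them the removal of any vehicle or cytokine library or of combination replicate 1 or 2. Rnpep lost it in 14 of 21 (adjusted p up to 0.171), among them the removal of any cytokine or combination library, vehicle replicate 1 or 4, or ML351 replicate 2.

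Prohormones and other granule peptides, the substrates, moved widely: of 28 genes 26 were measured, 6 rose, 7 fell and 13 were not called (median 0.14). Ucn3 (-5.03), a β-cell peptide of the corticotropin-releasing factor family, Pyy (-5.18) and Sst (-3.73), the hormone of δ cells, fell. Adm (4.65), adrenomedullin, which is amidated by Pam, averaged 11.9 ± 2.46 CPM with cytokines and 0.466 ± 0.328 CPM with vehicle (SD, n = 3). Tac1 (3.75), the precursor of substance P, and Nucb2 (0.71), that of nesfatin, rose too. Vgf (1.03, adjusted p = 0.000948), a granin-like precursor chosen after its value was seen, rose as Chgb and Scg3 did.

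Of 30 genes of granule biogenesis and membrane, all measured, 7 rose, 12 fell and 11 were not called (median -0.08). Slc30a8 (-2.54), the zinc transporter of insulin granules, Tmem27 (-2.31), collectrin, and Syt13 (-1.51), an atypical synaptotagmin, fell. The proton pump genes Atp6v1b2 (1.11) and Atp6v1a (0.98), whose product acidifies granules and lysosomes, and its accessory gene Atp6ap2 (0.55) rose. Ptprn (-0.05, adjusted p = 0.653) and Ptprn2 (-0.06, adjusted p = 0.527), granule membrane proteins chosen after their values were seen, were not called.

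Of 12 regulators 2 rose, 9 fell and 1 was not called (median -1.46). The endocrine transcription factor genes Nkx2-2 (-2.60), Pax6 (-1.85) and Neurod1 (-1.85) fell, whereas Insm1 (0.37), another endocrine factor, rose, though by the totals without Ins1 and Ins2 it was not called (0.20, edgeR adjusted p = 0.0507). Rest, a repressor of neuroendocrine genes, averaged 2.59 ± 0.948 CPM with cytokines and 1.24 ± 0.328 CPM with vehicle (SD, n = 3; log2 difference 1.06 ± 0.345 SE, adjusted p = 0.0112 by edgeR), a call lost without vehicle replicate 1 (0.0568) or cytokines replicate 4 (0.0851). Creb1, a gene of the CREB family, was at 0.08 (adjusted p = 0.356), and Ptbp1, whose product binds transcripts of granule proteins, fell (-0.45); both were chosen after their values were seen. None of these lists was tested as a list, and for single genes 35.3% higher and 37.2% lower is the share over all genes.

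**Figure D4:**
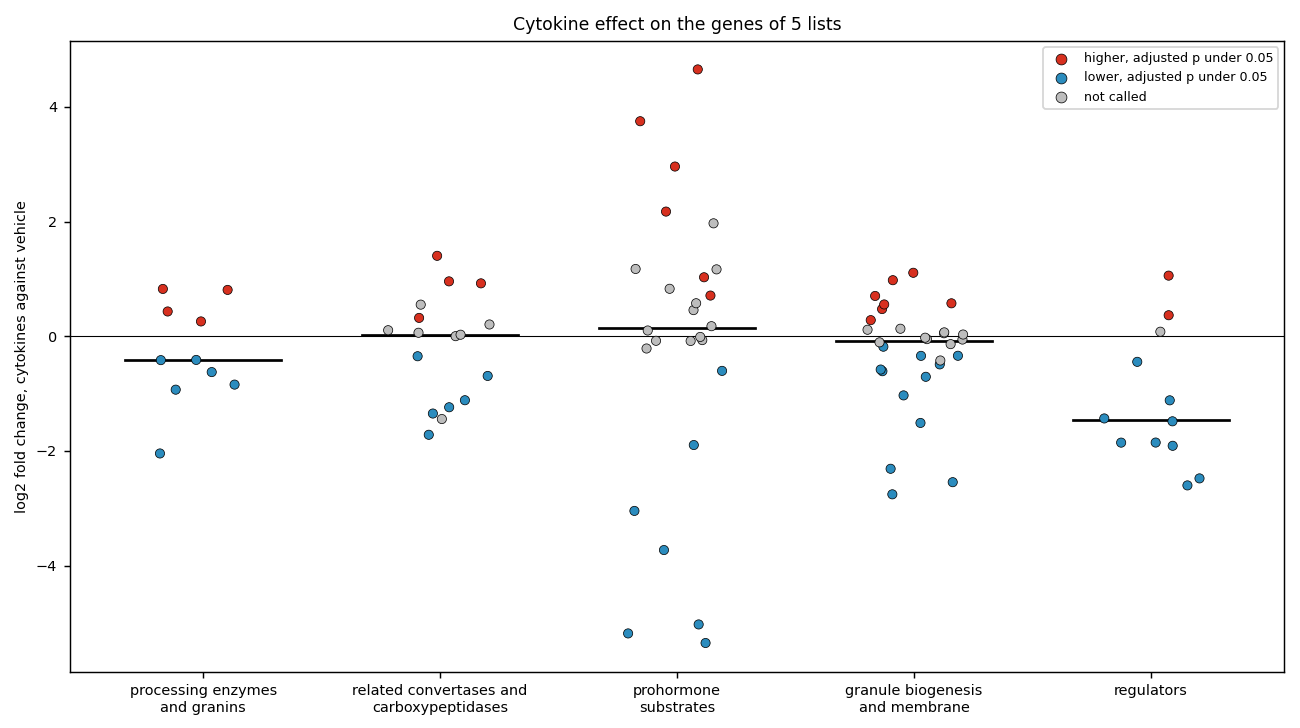
log2 fold change with cytokines against vehicle for the measured genes of 5 lists (10 processing enzymes and granins, 17 related enzymes, 26 substrates, 30 granule genes, 12 regulators). Points are genes, coloured by the edgeR call, and lines are medians, from 0.14 for substrates to -1.46 for regulators.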

How the data were processed

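Read counts per gene were deposited by the authors for 12 islet libraries as a table of raw counts over 14089 gene symbols. Per the labels' protocols the libraries were made with a nonstranded SMARTSeq v4 kit, and per the submitters' processing notes STAR, featureCounts, Subread, FastQC and DESeq2 were used with build mm10. Which versions, gene annotation and low-count cut-off they used is not given in the sources used here. Columns were matched to samples by name, and gene positions and exon lengths come from GENCODE M21 (GRCm38).

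edgeR 4.0.16 (R 4.3.3, limma 3.58.1) was fitted to all 12 libraries with TMM scaling, filterByExpr (which removed 0 genes), robust quasi-likelihood dispersions and 6 contrasts, and p-values were adjusted over all genes by Benjamini-Hochberg, with calls at 0.05. The tests were tried on simulated data first. CPM use TMM-scaled totals. Count ratios within a library were tested by exact permutation within the levels of the other treatment. DESeq2 1.42.0, other scalings, filters, a replicate block, fits to 2 groups and fits without single libraries were alternatives. No 2 libraries of a group agreed within counting noise. Libraries of the same replicate number did not deviate together (2 of 13 pairs with a correlation above 0.1), so the numbers were not used as pairs.

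The 10 genes, the pathway lists, the motifs and the rule for named genes were chosen with earlier results of these data known. The rule named all 10 members, up to 3 called genes of each list and direction with the smallest p in cytokines against vehicle, and every gene of the 4 pathway lists called for ML351. Marker lists are given as summed levels and counts. Comparisons of cytokines and of ML351 with vehicle share the vehicle libraries, and the 3 comparisons of the combination share its libraries.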

Additional observations from a re-analysis of the deposited data

How the results depend on the processing

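Of 420 alternatives of the 20 cytokine results of the 10 genes, 418 kept their call and direction. Exceptions were Scg5 by totals without insulin genes and, under the replicate block, Pam against vehicle (-0.58, edgeR adjusted p = 0.0578). Scaling by totals without Ins1 and Ins2 moved the median of all genes to -0.19 for cytokines against vehicle and -0.17 for the combination against ML351. By it, 22 in place of 13 granule genes were called lower in the combination against ML351. It left 1 in place of 2 regulators called higher in that comparison and in cytokines against vehicle, where Insm1 was not called. The filter of a mean of at least 5 CPM also gave 1 in both, because Rest was not tested under it. That filter left 6 in place of 10 substrates called higher in the combination against ML351. Without single libraries, 1 to 2 regulators were called higher in cytokines against vehicle. For ML351 against vehicle, 0 of the 10 genes were called, 1 by DESeq2 and 0 to 1 without single libraries. For the combination against cytokines, 1 was called, but 0 by library totals, in a fit to 2 groups or without ML351 replicate 1 and cytokines replicate 1, and 0 to 1 without single libraries. The causes were not tested. Over all genes, the 5 calls for ML351 against vehicle became 0 to 104 (DESeq2), the 202 for the combination against cytokines 53 (replicate block) to 521 (DESeq2), and the 1 interaction call 0 to 44 (DESeq2). The replicate numbers were not used as pairs, and the labels do not say whether they mark pairs. With the replicate block the ratios came from a linear fit. Pcsk1 over Pcsk2 was -1.21 with cytokines (exact permutation test, adjusted p = 0.06) and 0.16 with ML351 (0.107). Pcsk1n over Pcsk1 was 1.65 with cytokines (0.06) and -0.35 with ML351 (0.088). With cytokines, Scg5 over Pcsk2 was 1.17 (0.06) and Chga over Chgb -1.02 (0.06). None of these was called. In this blocked exact permutation test even a shift with no spread between libraries gets p = 0.03 before adjustment. The cytokine ratios had exact permutation p = 0.02 to 0.03 under the block, so their lost calls say nothing about their stability. With ML351, Pcsk1 over Pcsk2 (exact permutation p = 0.08) and Pcsk1n over Pcsk1 (exact permutation p = 0.055) were above 0.05 before adjustment. These ML351 calls thus depended on leaving the block out. Without single libraries, Pcsk1 over Pcsk2 with ML351 was 0.12 to 0.18, and Scg5 over Pcsk2 with ML351, uncalled, was -0.0233 (without ML351 replicate 3) to 0.0602. Each of the 10 genes had at least 2664 counts in each library.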

Other observations

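For each of the 10 genes, the gene with the most similar profile over the 12 libraries was found by Pearson correlation of log2 CPM. Because cytokines split the libraries, r is given within the 6 libraries without and the 6 with cytokines, as a description. Each set mixes libraries with and without ML351, and the partner was picked from 14088 other genes. Pcsk1 was most like Ttr, the gene of the thyroid hormone carrier transthyretin, with r of 0.762 with cytokines and 0.906 without. Ttr is among the α-cell markers summed above, and with cytokines against vehicle it fell further (log2 fold change -4.61) than Pcsk1 (-2.04). Pcsk2 was most like Zmynd11 (0.874 with cytokines, 0.914 without) and Pcsk1n most like H1fx, a linker histone gene (0.947 with, 0.958 without). Cpe was most like Psenen, a γ-secretase subunit gene (0.94 with, 0.918 without), and Pam most like Slc35e1 (0.884 with, 0.95 without). Among granins, the partner of Chga was Cdkl1 (0.875 with, 0.917 without), that of Chgb was Saraf (0.951 with, 0.778 without) and that of Scg2 was Gstz1 (0.941 with, 0.857 without). Scg3 was most like Ptcd2 (0.903 with, 0.833 without) and Scg5 most like Pde6d (0.935 with, 0.882 without). No member had another of the 10 as its closest gene, but each was compared with 14088 genes. Among members, r over the 12 libraries ran from -0.966 (Pcsk1 and Cpe) to 0.985 (Pcsk1 and Scg2), with the cytokine split included.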
